A study of Mus musculus with 10 samples.

Results

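The Dusp, Sprouty and Spred genes described here act as brakes on the MAP kinase cascades. The 8 genes were Dusp1, Dusp4, Dusp5, Dusp6, Dusp14, Spry2, Spry4 and Spred1, chosen by name and matched by Ensembl gene ID among the 47729 genes of the count table. Their mRNA was measured by RNA sequencing in 10 libraries of hypothalamus, hippocampus and prefrontal cortex of CF1 mice (crlfcen:CF1), an outbred stock, on postnatal day 56. In the low-protein (LP) groups the parents ate the LP diet during mating, and the dams went on with it through pregnancy and lactation. In the normal-protein (NP) groups the same periods were spent on the NP diet. All offspring of both diets were weaned on postnatal day 21 and then had the NP diet for 5 weeks, so the groups differ in the diet of the parents and of early life and not in what the young adults were eating. Each diet had 1 library each of male hypothalamus, female hippocampus, male hippocampus, female prefrontal cortex and male prefrontal cortex, which gives 5 pairs of an LP and an NP library. The labels do not say whether a library holds 1 animal or a pool, nor whether regions came from the same animals, so the p-values below measure the spread between these libraries only, and the region tests treat the libraries as independent. The code in the title of the LP hypothalamus library differs in its second number from the codes of the other 9 libraries, including its NP partner, and what that number stands for is not given.

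Growth factors and neuronal activity switch on ERK, the best known of the MAP kinases, through Ras and a chain of kinases. ERK in turn raises the transcription of genes that shut it off. Dusp genes encode phosphatases that remove the activating phosphates from ERK, JNK or p38, while Sprouty and Spred proteins hold back the steps between the receptor and the kinases. Because ERK induces many of them, their mRNA is often read as a trace of recent signalling in neurons, beside that of Fos, Arc and the Egr genes.

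Total counts ranged from 10256882 to 16265481 in 9 libraries. The female NP hippocampus library totalled 7871010 and held no counts for a block of genes in which 4486 of 4501 well covered genes (mean of at least 50 counts elsewhere) were at 0, against 4 of 8581 outside it. That block includes Dusp4, which is treated as missing there, while the other 7 genes were counted in all 10 libraries. Levels are given as CPM, the count of a gene relative to the scaled library total over genes measured in every library. The hypothalamus and hippocampus marker lists were highest in the regions so labelled. The 7 hypothalamus genes counted in every library summed to 670.5 to 1211 CPM in hypothalamus against 1.25 to 2.75 CPM in hippocampus and prefrontal cortex. The 5 hippocampus genes so counted summed to 678 to 733 CPM in hippocampus, 86.65 to 94.94 CPM in hypothalamus and 36.9 to 43.4 CPM in prefrontal cortex. The 3 thalamus genes so counted summed to 217 CPM in female NP hippocampus, against 106 to 139 CPM in the other hippocampus libraries. The male NP hippocampus library stood apart in 1 respect, with 823 CPM over the 5 pituitary genes, against 3.51 to 18.6 CPM in the other hippocampus libraries.

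The promoters of 2 phosphatase genes are shown because they alone, of the 6 members with a RefSeq promoter (GRCm38.p6; Dusp1, Dusp5, Dusp6, Dusp14, Spry2 and Spred1), held any of the searched motifs of activity-dependent transcription, and because the 2 genes had different profiles over regions and sexes. Each run covers 250 bases before the transcription start and 50 after it, on the strand of the gene, with every motif match in capitals. Dusp1 lies on the minus strand (promoter chr17:26508423-26508722) and Dusp5 on the plus strand (promoter chr19:53528895-53529194).
Dusp1: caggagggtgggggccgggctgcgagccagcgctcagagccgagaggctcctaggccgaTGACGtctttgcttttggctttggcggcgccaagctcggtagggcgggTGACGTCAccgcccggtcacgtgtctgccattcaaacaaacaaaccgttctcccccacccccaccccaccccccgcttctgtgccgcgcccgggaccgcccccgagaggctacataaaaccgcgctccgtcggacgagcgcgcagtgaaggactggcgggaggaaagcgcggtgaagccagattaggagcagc
Dusp5: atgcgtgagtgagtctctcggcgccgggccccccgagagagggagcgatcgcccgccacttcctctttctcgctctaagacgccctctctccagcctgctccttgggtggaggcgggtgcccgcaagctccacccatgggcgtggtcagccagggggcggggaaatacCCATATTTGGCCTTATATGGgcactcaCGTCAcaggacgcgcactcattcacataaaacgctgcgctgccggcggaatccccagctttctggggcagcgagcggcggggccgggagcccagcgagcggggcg
In Dusp1 the capitals mark a CRE core (TGACG) at positions -191 to -187 from the start and a full CRE (TGACGTCA), which reads the same on both strands and contains the core on both, at -143 to -136. In Dusp5 they mark a pair of adjoining CArG boxes, the sequence bound by serum response factor, at -82 to -73 and -72 to -63, and a CRE core on the other strand at -55 to -51. Among all 32851 RefSeq promoters of this length, searched on both strands, 1.79% held the CRE, 20.8% the CRE core and 1.63% the CArG box. AP-1 (TGANTCA, in 7.81% of all promoters), EGR (GCGNGGGCG, in 5.55%) and ETS (CCGGAAGT, in 3.89%) letters were in none of the 6 windows. The Spred1 window ends at base 117121120 of chromosome 2, before the GENCODE start of the gene at 117121374. The Dusp1 window lies inside the GENCODE span of its gene, whose upstream end on the minus strand is at 26562128. The Dusp14 window (84068308 to 84068607) also lies inside its gene, with the upstream end at 84069261. Positions are thus counted from the RefSeq start. For Dusp1 and Dusp14 the last 50 bases were found in a GENCODE transcript of the gene. A match is a string of letters and not a measured binding site.

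The phosphatases were more strongly expressed in the cortex than in the hypothalamus, and differed from each other in their hippocampal level. Dusp6, the cytoplasmic phosphatase specific for ERK (ENSMUSG00000019960, chromosome 10, 99263231 to 99267489, GRCm38), had 34.1 CPM in LP and 32.5 in NP hypothalamus, 147 and 131.5 in female hippocampus, 171 and 160.4 in male hippocampus, 258 and 192 in female prefrontal cortex, and 243 and 259 in male prefrontal cortex. No library of one region reached the range of another. Dusp14, an atypical dual-specificity phosphatase without the kinase-binding domain of the others (ENSMUSG00000018648, chromosome 11, 84048041 to 84069261), had 19.7 CPM in LP and 16.9 in NP hypothalamus, 38.4 and 42.8 in female hippocampus, 34.1 and 29.9 in male hippocampus, 193 and 122 in female prefrontal cortex, and 156 and 117.5 in male prefrontal cortex. Its highest hippocampus library was far below its lowest prefrontal one. Dusp1, the nuclear phosphatase that is itself an immediate early gene (ENSMUSG00000024190, chromosome 17, 26505590 to 26562128), had 38.6 CPM in LP and 33.8 in NP hypothalamus, 32.7 and 24.5 in female hippocampus, 48.4 and 40.4 in male hippocampus, 142 and 75.7 in female prefrontal cortex, and 187 and 231 in male prefrontal cortex. Hypothalamus and hippocampus overlapped for this gene, and the prefrontal libraries were both the highest and the most scattered.

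Dusp4 and Dusp5, a nuclear phosphatase for ERK and JNK and a nuclear one specific for ERK, had another profile, with hippocampus at the top. Dusp5 (ENSMUSG00000034765, chromosome 19, 53529109 to 53542431) had 2.54 CPM in LP and 3.05 in NP hypothalamus, 35.4 and 35.1 in female hippocampus, 37.9 and 33.3 in male hippocampus, 31.2 and 21.5 in female prefrontal cortex, and 28.3 and 25.1 in male prefrontal cortex. All 4 hippocampus libraries exceeded all 4 prefrontal ones, and hypothalamus was lowest by far. Dusp4 (ENSMUSG00000031530, chromosome 8, 34807297 to 34819894) had 8.265 CPM in LP and 7.58 in NP hypothalamus, 42.7 in LP female hippocampus, 37.65 and 30.2 in male hippocampus, 44.15 and 21.95 in female prefrontal cortex, and 21.6 and 16.0 in male prefrontal cortex. The LP female prefrontal library was the highest of all 9, so hippocampus and prefrontal cortex overlapped. Exons of Dusp1 share 11 bases with those of Ergic1 on the opposite strand and those of Dusp5 share 547 bases with an antisense gene, and the strand setting of the counting is not given in the sources used here.

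**Figure D1:**
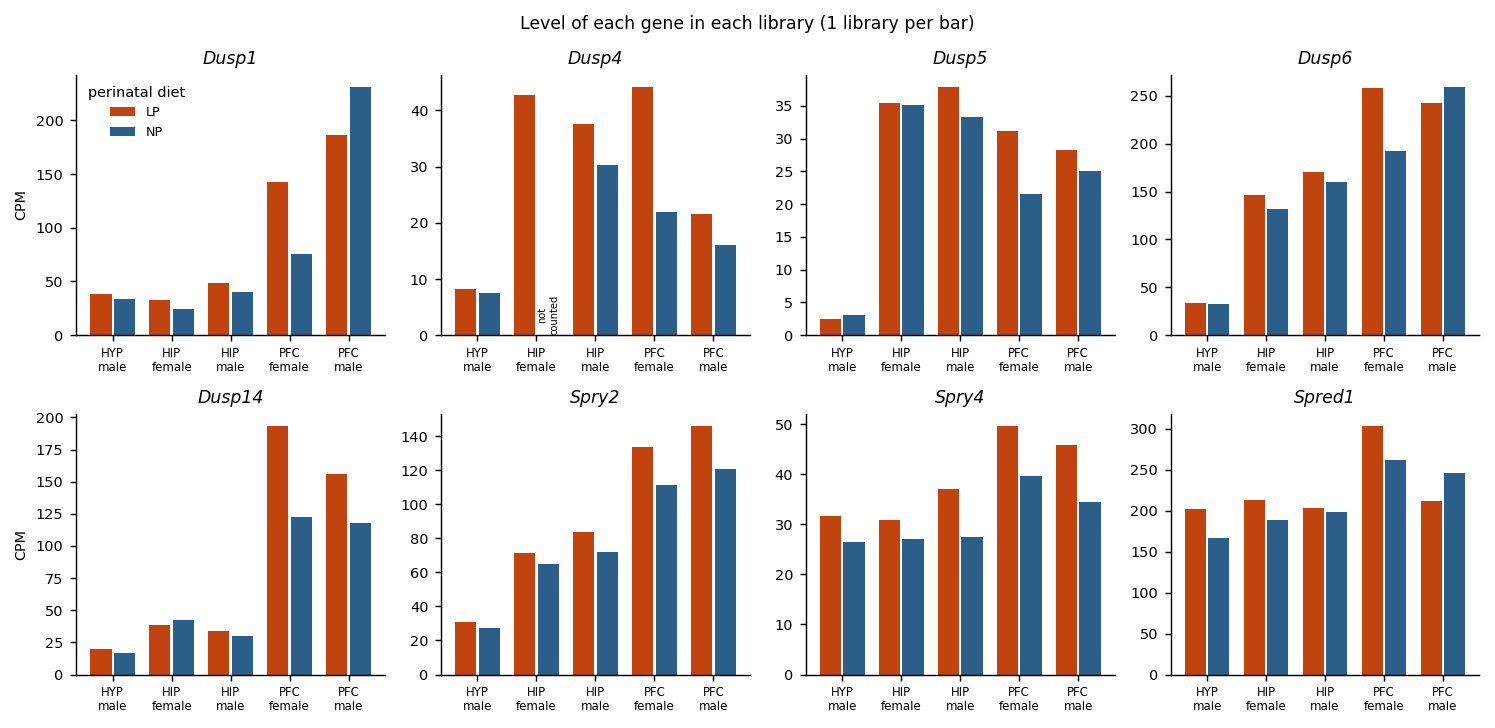
CPM of each of the 8 genes (panels) in each library, with LP bars left of NP bars in male hypothalamus (HYP), female and male hippocampus (HIP) and female and male prefrontal cortex (PFC). Each bar is 1 library, so there is no error bar; Dusp4 was not counted in NP female hippocampus, and Spry2 and Spry4 are higher in the LP bar of all 5 pairs.

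The Sprouty and Spred genes were present in every region. Spry2, which blocks signalling from receptor tyrosine kinases to Ras and Raf (ENSMUSG00000022114, chromosome 14, 105891947 to 105896819), had 30.7 CPM in LP and 27.4 in NP hypothalamus, 71.6 and 65.2 in female hippocampus, 83.5 and 72.1 in male hippocampus, 134 and 111 in female prefrontal cortex, and 146 and 121 in male prefrontal cortex. The 3 regions did not overlap. Spry4, a relative with a similar role (ENSMUSG00000024427, chromosome 18, 38586247 to 38601415), had 31.7 CPM in LP and 26.5 in NP hypothalamus, 30.8 and 27.1 in female hippocampus, 37.2 and 27.6 in male hippocampus, 49.6 and 39.7 in female prefrontal cortex, and 45.9 and 34.5 in male prefrontal cortex. Hippocampus overlapped with both other regions, and prefrontal cortex was highest on average. Spred1, which brings the Ras inhibitor neurofibromin to the membrane (ENSMUSG00000027351, chromosome 2, 117121374 to 117182279), had 202 CPM in LP and 166 in NP hypothalamus, 213 and 189 in female hippocampus, 204 and 198 in male hippocampus, 303 and 262 in female prefrontal cortex, and 212 and 246 in male prefrontal cortex. Its regional means were 184 CPM in hypothalamus, 201 in hippocampus and 256 in prefrontal cortex.

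Corrected for exon length, the order of the 8 genes changed between regions. In hypothalamus Spred1 was highest at 27.2 ± 3.8 CPM per kb (SD, n = 2 libraries), followed by Spry2 at 13.9 ± 1.1 and Dusp1 at 10.9 ± 1.0, and the ranges of Dusp1 and Dusp6 (10.6 ± 0.35) overlapped. Dusp14 (9.41 ± 1.0), Spry4 (6.12 ± 0.77), Dusp4 (2.89 ± 0.18) and Dusp5 (1.13 ± 0.15) followed without overlap. In hippocampus Dusp6 led at 48.7 ± 5.4 CPM per kb (SD, n = 4 libraries), above every library of Spry2 (35.0 ± 3.7), which overlapped with Spred1 (29.6 ± 1.5). Dusp14 (18.7 ± 2.9) followed, above every library of Dusp5 but overlapping with Dusp4. Below it came Dusp5 (14.3 ± 0.76), Dusp4 (13.45 ± 2.3, n = 3), Dusp1 (11.02 ± 3.1) and Spry4 (6.45 ± 0.98), each overlapping with the next. In prefrontal cortex Dusp6 at 75.9 ± 10.1, Dusp14 at 75.7 ± 18.0, Spry2 at 61.3 ± 7.3, Dusp1 at 48.0 ± 20.0 CPM per kb each overlapped with the next, down to Spred1 at 37.7 ± 5.6 (SD, n = 4 libraries). A gap separated these 5 from Dusp5 (10.7 ± 1.7), Dusp4 (9.46 ± 4.5) and Spry4 (8.92 ± 1.4), whose ranges overlapped.

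**Figure D2:**
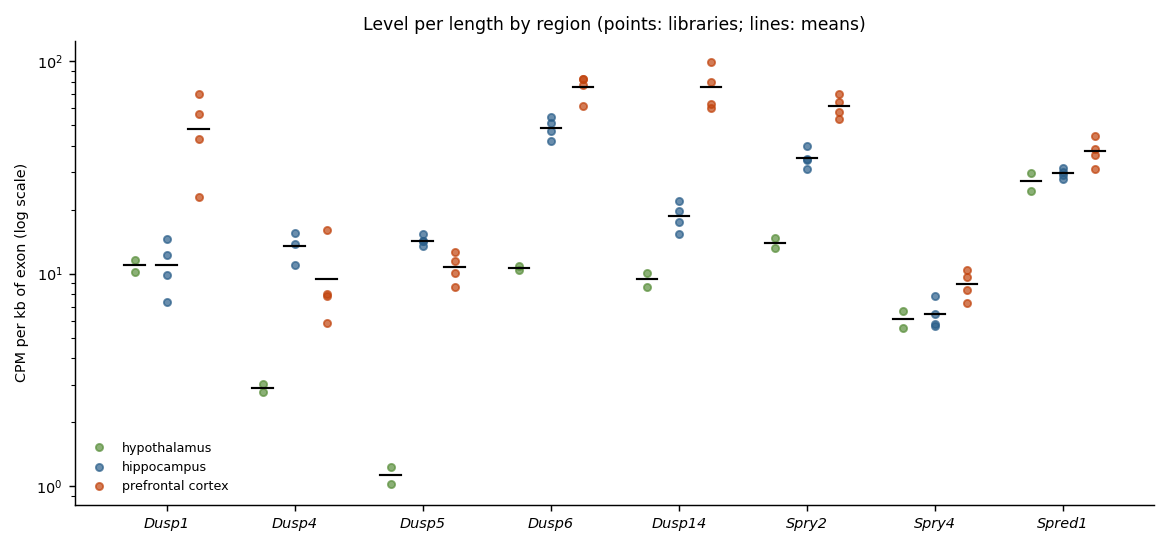
CPM per kb of exon, on a log axis, of the 8 genes in hypothalamus (2 libraries), hippocampus (4, but 3 for Dusp4) and prefrontal cortex (4); points are libraries and black lines are means. Dusp5 falls to 1.13 CPM per kb in hypothalamus, against 14.3 in hippocampus and 10.7 in prefrontal cortex, while Spred1 stays between 27.2 and 37.7.

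The regions were compared over all 10 libraries with sex and diet as terms. All 8 genes were lower in hypothalamus than in prefrontal cortex, from Spred1, 1.32-fold lower (log2 -0.40 ± 0.10), and Spry4, 1.44-fold lower (-0.53 ± 0.10), to Dusp6, 7.65-fold lower (-2.94 ± 0.10), and Dusp5, 9.40-fold lower (-3.23 ± 0.18). The adjusted p was 0.00377 or less for each (edgeR's quasi-likelihood test with Benjamini-Hochberg adjustment), and 29.5% of 17447 tested genes were called lower in this comparison and 34.4% higher. Against hippocampus, 5 of the 8 were lower in hypothalamus, namely Dusp5, 12.6-fold (log2 -3.65 ± 0.17), Dusp6, 4.90-fold (-2.29 ± 0.10), Dusp4, 3.90-fold (-1.97 ± 0.20), Spry2, 2.64-fold (-1.40 ± 0.07) and Dusp14, 1.81-fold (-0.86 ± 0.16). Of all genes 28.2% were called lower and 32.3% higher there. Dusp1 (-0.38 ± 0.21), Spry4 (-0.07 ± 0.11) and Spred1 (-0.06 ± 0.10) did not pass the threshold between these regions.

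In hippocampus against prefrontal cortex 6 genes were lower and 2 higher, where 26.9% of all tested genes were called lower and 26.9% higher. Dusp1 was 4.31-fold lower in hippocampus (log2 -2.11 ± 0.15, edgeR adjusted p = 3.7e-08) and Dusp14 4.02-fold lower (-2.01 ± 0.10, edgeR adjusted p = 5.9e-10). Spry2 was 1.75-fold, Dusp6 1.56-fold, Spry4 1.38-fold and Spred1 1.27-fold lower. Dusp5 was 1.34-fold higher in hippocampus (0.42 ± 0.09, edgeR adjusted p = 0.00107) and Dusp4 1.47-fold higher (0.56 ± 0.14, edgeR adjusted p = 0.00361). The Dusp4 call was lost without the male hippocampus pair (log2 0.12, adjusted p = 0.693) or without the male prefrontal pair (0.15, adjusted p = 0.604), over alternatives from 0.000315 to 0.693. The Spred1 call was lost without the female hippocampus pair (-0.19, adjusted p = 0.173) or the female prefrontal pair (-0.19, adjusted p = 0.165), over alternatives from 5.78e-05 to 0.173.

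Of the 9 MAP kinase phosphatases tested outside the 8 genes, 7 were lower and 0 higher in hippocampus than in prefrontal cortex, led by Dusp26 (log2 -2.13 ± 0.08), Dusp7 (-0.53 ± 0.06), Dusp3 (-0.37 ± 0.04), Dusp8 (-0.36 ± 0.05) and Dusp22 (-0.57 ± 0.08). In hypothalamus these 9 were divided, with 4 lower and 2 higher than in prefrontal cortex and a median log2 of -0.058. Against hippocampus 3 were lower and 4 higher in hypothalamus, among them Dusp26 (log2 2.565 ± 0.09). Of the 24 ERK target genes on a list of transcription factors and other genes that ERK induces, 19 were lower and 4 higher in hippocampus, with a median log2 difference of -1.29, and in hypothalamus against prefrontal cortex 21 were lower and 1 higher, with a median of -1.84. The medians of the 8 genes were -0.55 and -2.35 in the same 2 comparisons, and those of all genes -0.01 and 0.04. Of 26 genes of the ERK cascade itself, from adaptors and Ras to the kinases, 13 were lower and 9 higher in hypothalamus than in prefrontal cortex. Sos1, an activator of Ras, was among those higher (log2 1.34 ± 0.07). Neuron markers differed between regions, though not all in 1 direction. The 7 neuron genes counted in every library summed to 5197 to 5526 CPM in hypothalamus. The sums were 9055 to 9625 CPM in hippocampus and 8934 to 9809 CPM in prefrontal cortex. Of the 8 neuron genes tested, 6 were called lower and 2 higher in hypothalamus than in prefrontal cortex. Against hippocampus 4 were called lower and 1 higher in hypothalamus. The part of neuron content in the lower levels of the 8 genes in hypothalamus was not tested. In tissue libraries, fewer cells of a type and less RNA per cell cannot be told apart.

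Spry2 and Spry4 were the 2 genes that passed the test for diet over all 5 pairs, both higher in LP. Spry4 was 1.25-fold higher in LP (log2 0.33 ± 0.06, edgeR adjusted p = 0.0288) and Spry2 1.16-fold (0.22 ± 0.05, edgeR adjusted p = 0.0438), each with the LP library above the NP library in 5 of 5 pairs. The log2 ratio of single pairs lay between 0.19 and 0.43 for Spry4 and between 0.13 and 0.27 for Spry2. With these 2 of 8 genes called higher and 0 lower, the background was 0.956% of 17685 tested genes called higher and 0.458% lower. These are small changes close to the threshold. Both calls were lost with DESeq2 (adjusted p = 0.175 for Spry4 and 0.244 for Spry2), without a low-count filter, or without any of the female prefrontal, male prefrontal or male hippocampus pairs, and that of Spry2 also with the earlier quasi-likelihood method, without the female hippocampus pair or without its NP library (adjusted p = 0.0548, 0.0767 and 0.076). Over 11 alternatives the adjusted p ran from 0.0264 to 0.175 for Spry4 and from 0.0311 to 0.244 for Spry2, with a positive value in each.

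The other 6 genes had positive log2 values for LP over NP but did not pass. Dusp4 came nearest with 0.51 ± 0.12 (edgeR adjusted p = 0.0571, 9 libraries), followed by Dusp14 with 0.33 ± 0.09 (adjusted p = 0.112), Dusp6 with 0.13 ± 0.06 (0.388), Dusp5 with 0.18 ± 0.09 (0.394), Dusp1 with 0.25 ± 0.13 (0.445) and Spred1 with 0.10 ± 0.06 (0.514). The median over the 8 genes was 0.23, against -0.001 over all genes tested. In single pairs, LP was higher for 7 of 8 genes in hypothalamus, 6 of 7 in female hippocampus, 8 of 8 in male hippocampus, 8 of 8 in female prefrontal cortex and 5 of 8 in male prefrontal cortex. Over all genes the share higher in LP was between 47.8% and 52.4%. Dusp4 passed without the hypothalamus pair (0.56, adjusted p = 0.00654), Dusp14 without the female hippocampus pair (0.41, adjusted p = 0.0325) and Dusp1 without the male prefrontal pair (0.49, adjusted p = 0.0366). Over the alternatives their adjusted p reached 0.352, 0.491 and 1.

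**Figure D3:**
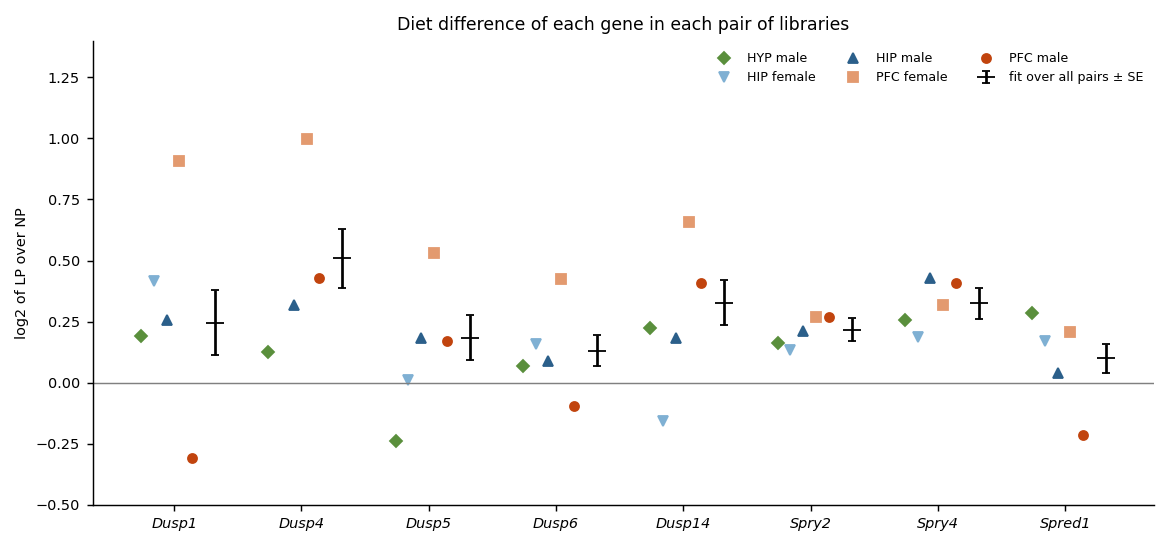
Log2 ratio of LP over NP of each of the 8 genes in each pair of libraries (coloured symbols, 1 pair each) and the fitted difference over all pairs with its standard error (black). Spry2 and Spry4 lie above 0 in all 5 pairs, while Dusp1 is at 0.91 in female and -0.31 in male prefrontal cortex.

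Blood markers differed with diet in every pair of the same libraries, and oligodendrocyte and choroid plexus markers in some pairs only. The 2 blood genes counted in every library were lower in LP in all 5 pairs, with log2 ratios from -0.81 to -0.35, and all 5 blood genes tested were called lower. They summed to 1001 CPM in LP and 1493 in NP hypothalamus, 270.3 to 273.8 CPM in LP and 345 to 392 in NP hippocampus, and 526 to 590.1 CPM in LP and 887 to 1036 in NP prefrontal cortex. The 3 oligodendrocyte genes counted in every library were lower in LP in 4 of 5 pairs, and 0 of 6 passed over all pairs. The 4 choroid plexus genes counted in every library summed to 235 CPM in LP and 231 in NP hypothalamus, 623 to 660.1 CPM in LP and 351 to 434 in NP hippocampus (log2 0.83 in the female and 0.60 in the male pair), and 213 to 241 CPM in LP and 240.0 to 262.5 in NP prefrontal cortex. Over all pairs 1 of 5 tested genes of that list, Ttr, passed (log2 1.37 ± 0.24, edgeR adjusted p = 0.0145). The neuron list differed by log2 -0.10 to 0.02 in the 5 pairs, and 0 of 8 neuron genes passed. In hypothalamus the mural and meningeal list summed to 526 CPM in LP and 280.2 in NP, and the hypothalamus list to 670.5 CPM in LP and 1211 in NP. The part of these differences in those of the 8 genes was not tested.

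**Figure D4:**
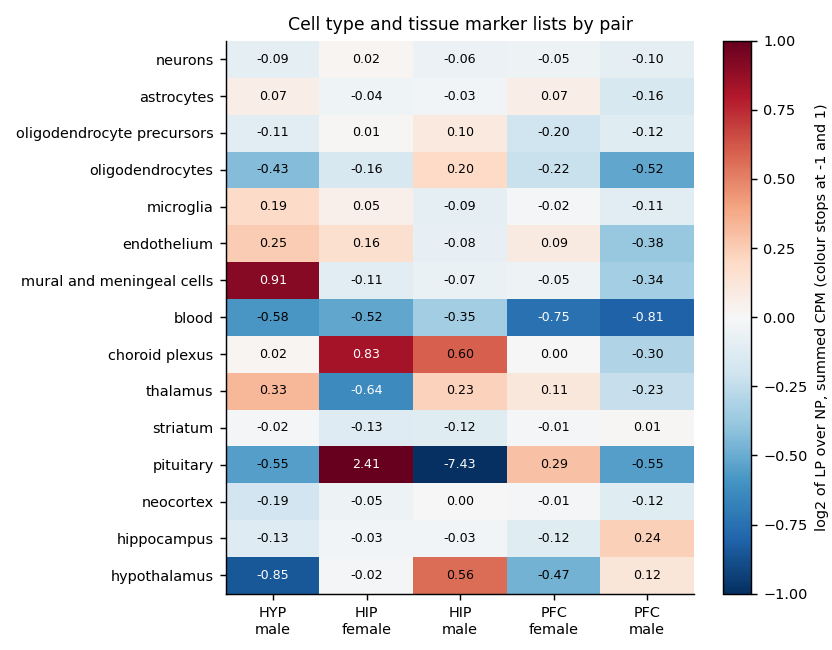
Log2 ratio of LP over NP of the summed CPM of 15 marker lists (rows, genes counted in every library) in the 5 pairs (columns); colours stop at -1 and 1. Blood is lower in LP in every pair (-0.81 to -0.35), the neuron list is within -0.10 to 0.02, and the pituitary list is at -7.43 in male hippocampus.

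Within prefrontal cortex 1 of the 7 genes tested passed, against 0.849% of 11772 genes called higher and 0.688% called lower. Dusp14 was 1.45-fold higher in LP (log2 0.53 ± 0.08, edgeR adjusted p = 0.00436), with 193 and 156 CPM in the LP libraries and 122 and 117.5 CPM in the NP libraries. The call was lost with DESeq2 (0.54, adjusted p = 0.475) and without the low-count filter (0.53, adjusted p = 0.105), over alternatives from 6.37e-08 to 0.475. The low end came from the fit without the female hippocampus pair, which had 1 residual degree of freedom against 2 in the main fit. Spry4 (0.37 ± 0.10, edgeR adjusted p = 0.0869) and Spry2 (0.27 ± 0.07, edgeR adjusted p = 0.0706) did not pass, though their LP libraries were both above both NP libraries. Both passed when the incomplete library was left out (adjusted p = 0.0408 for Spry4 and 0.0444 for Spry2, up to 1 in other alternatives). The sum of the 3 oligodendrocyte genes was 1476 to 1618 CPM in LP prefrontal cortex and 1717 to 2321 CPM in NP, all 3 called lower, and its part in the Dusp14 difference was not tested. Within hippocampus 0 of 7 genes passed with edgeR or with DESeq2, against 0.212% of 11772 genes called higher and 0.0934% called lower. All 7 fitted values were positive there, from 0.01 ± 0.11 for Dusp14 to 0.32 ± 0.11 for Spry4 and 0.33 ± 0.23 for Dusp1, and 2 of 7, Spry2 (0.0381) and Spry4 (0.0121), had an unadjusted p under 0.05 in edgeR.

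The diet difference was then compared between regions. Of the 7 genes 0 passed in hippocampus minus prefrontal cortex with edgeR or DESeq2 and 1 had an unadjusted p under 0.05, where 0% of 11772 genes were called, with 632 at an unadjusted p under 0.05 in edgeR. Dusp14 had the largest such value of the 7, -0.53 ± 0.14 (edgeR adjusted p = 0.572), with 0.01 in hippocampus and 0.53 in prefrontal cortex, so its diet difference is not shown to differ between these regions. Hypothalamus had 1 pair and no test. Spred1 had a log2 ratio of 0.29 there (95% interval 0.20 to 0.37, counting error only), Spry4 0.26, Dusp14 0.22, Dusp1 0.19, Spry2 0.16, Dusp4 0.13, Dusp6 0.07 and Dusp5 -0.24.

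Dusp1, Dusp6 and Spred1 went opposite ways in the prefrontal cortex of the sexes. Dusp1 had a log2 ratio of 0.91 in the female pair (95% interval 0.75 to 1.07, counting error only) and -0.31 in the male pair (-0.41 to -0.21). Dusp6 had 0.42 in the female pair and -0.10 in the male pair, and Spred1 0.21 and -0.21. For Dusp1 this came with a large gap between the NP libraries, at 75.7 CPM in females and 231 CPM in males, beside 142 and 187 CPM in the LP libraries. Over prefrontal cortex and hippocampus together, the female minus male difference of the diet effect was 0.84 ± 0.17 for Dusp1 (edgeR adjusted p = 0.113), 0.30 ± 0.10 for Dusp6 (0.579) and 0.27 ± 0.09 for Spred1 (0.579). Of the 7 genes 0 passed with edgeR or DESeq2 and these 3 had an unadjusted p under 0.05, with 0.182% of 10973 genes called in either direction. Without the male hippocampus pair, which left 1 male pair and 1 residual degree of freedom, the values were 1.06 for Dusp1, 0.39 for Dusp6 and 0.40 for Spred1. In other alternatives their adjusted p reached 1. Among 17 ERK target genes 1 passed, Btg2, an inhibitor of cell growth that is quickly induced (1.17 ± 0.18, adjusted p = 0.0193).

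With sex fitted within strata of region and diet, edgeR called Dusp1 lower and Dusp4 higher in females. Dusp1 had 24.5 to 32.7 CPM in female and 40.4 to 48.4 CPM in male hippocampus, and 75.7 to 142 CPM in female and 187 to 231 CPM in male prefrontal cortex, with no overlap in either region. It was 1.82-fold lower in females (log2 -0.86 ± 0.15, edgeR adjusted p = 0.0156). In LP hippocampus Dusp4 had 42.7 CPM in the female and 37.65 CPM in the male library. The male NP library of that region had 30.2 CPM and the female one had no count for it. In prefrontal cortex the female and male values were 44.15 and 21.6 CPM in LP, and 21.95 and 16.0 CPM in NP. The sexes on the NP diet could thus be compared for Dusp4 in prefrontal cortex only. Dusp4 was 1.45-fold higher in females (0.53 ± 0.11, edgeR adjusted p = 0.00579, 7 libraries with 2 residual degrees of freedom). In this comparison 0.288% of 17030 genes were called lower in females and 0.346% higher. Both calls were lost with DESeq2 (adjusted p = 0.533 for Dusp1 and 0.808 for Dusp4) and without the low-count filter (0.0524 and 0.416). Over alternatives the adjusted p ran from 9.18e-21 to 0.533 for Dusp1 and from 0.000181 to 0.808 for Dusp4, which could not be fitted without either prefrontal pair. Fits with a pair left out had 1 residual degree of freedom, against 3 in the main fit of Dusp1, so they estimate the spread poorly. Spred1 (0.15 ± 0.07, edgeR adjusted p = 0.539) passed without either hippocampus pair (0.28, adjusted p = 0.0188 and 0.018). Of the 24 ERK target genes 9 were lower in females and 0 higher, led by Junb (log2 -0.63 ± 0.07), Fos (-1.15 ± 0.08), Ier2 (-0.89 ± 0.13), Nr4a1 (-0.74 ± 0.08) and Arc (-0.89 ± 0.11), which are immediate early genes. Of the 9 other MAP kinase phosphatases and the 3 other Sprouty and Spred genes, 0 were called between the sexes by edgeR or DESeq2, and 2 and 2 had an unadjusted p under 0.05 in edgeR.

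In the wider pathway many ERK target genes were called higher in LP, while few genes of the cascade passed. Over all pairs 12 of 24 ERK target genes were higher in LP and 0 lower, where 0.956% of 17685 tested genes were called higher and 0.458% lower. On this list, chosen with earlier results of these data known, 20 genes had positive values. Its median was 0.31, against -0.001 over all genes tested. The leading ones were Fosl2 (log2 0.88 ± 0.07, edgeR adjusted p = 1.75e-05), Fosb (0.96 ± 0.12), Egr4 (0.66 ± 0.10), Ier5 (0.34 ± 0.05) and Fos (0.69 ± 0.11). The same list had a median of 0.16 in the hypothalamus pair, 0.32 and 0.23 in the female and male hippocampus pairs, and 0.61 and 0.26 in the female and male prefrontal pairs. The 8 genes had medians of 0.18, 0.16, 0.20, 0.48 and 0.22 in the same order, so for both groups the female prefrontal pair was highest. Of the ERK cascade 1 of 26 genes passed, Rps6ka2, a kinase downstream of ERK (0.21 ± 0.05, edgeR adjusted p = 0.0401). In edgeR 7 of these 26 had an unadjusted p under 0.05, 5 of them with positive values. Of all 17685 genes tested, 2458 had an unadjusted p under 0.05. Of 14 genes of the JNK, p38 and ERK5 cascades 0 passed with edgeR or DESeq2, and 2 had an unadjusted p under 0.05 in edgeR. With DESeq2 7 of the 24 target genes and 0 of the 26 cascade genes passed. Whether the lists differ from each other was not tested.

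Among the brakes that are not in the set, 0 of 9 other MAP kinase phosphatases and 0 of 3 other Sprouty and Spred genes passed over all pairs with edgeR or DESeq2, with median log2 values of 0.04 and 0.08 and with 1 and 1 at an unadjusted p under 0.05 in edgeR. Within prefrontal cortex, genes missing from the incomplete library were not tested. There Spred2, 1 of 2 other Sprouty and Spred genes tested, was called higher in LP (0.34 ± 0.07, edgeR adjusted p = 0.0198). With DESeq2 0 of these 2 passed. In this region edgeR called 0.849% of 11772 genes higher. Of 13 other brakes on ERK or its receptors 1 passed over all pairs, Errfi1, an inhibitor of the EGF receptor that is induced by it (0.33 ± 0.05, edgeR adjusted p = 0.00854). Upstream, the neurotrophin gene Bdnf was higher in LP (0.44 ± 0.09, edgeR adjusted p = 0.0305), the only one of 16 ligand genes to pass in this fit. The receptor gene Ret was also higher in LP (0.43 ± 0.09, edgeR adjusted p = 0.0354).

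**Figure D5:**
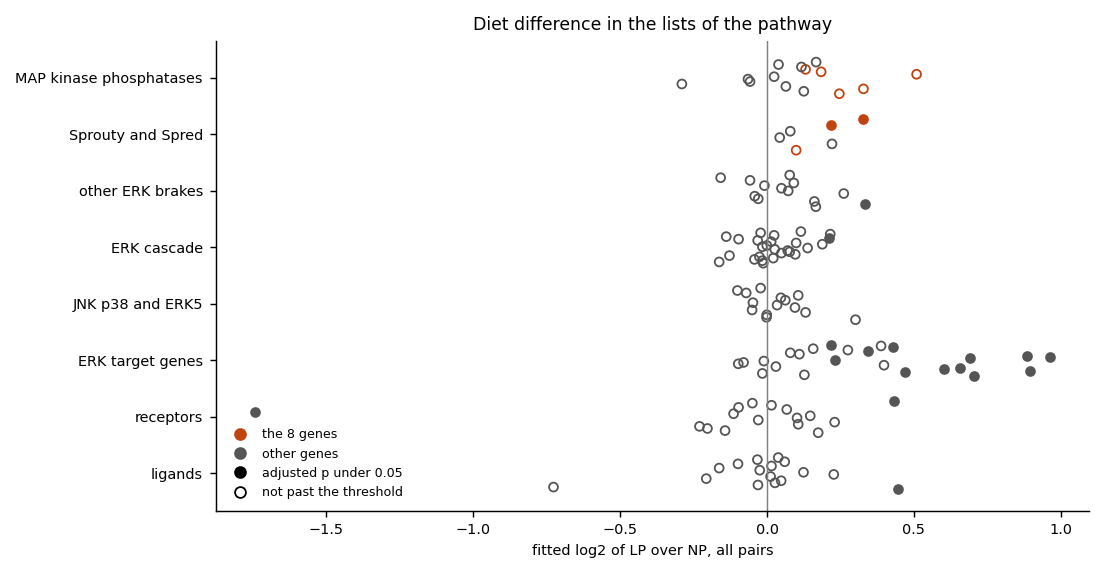
Fitted log2 difference of LP over NP over all pairs for each tested gene of 8 pathway lists (rows); filled points have an edgeR adjusted p under 0.05 and the 8 genes are orange. Of the 24 ERK target genes 12 are filled and to the right of 0, and among the 8 genes the filled points are Spry2 and Spry4.

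The genes most like each of the 8 over the libraries were found by the Pearson correlation of log2 CPM among 7731 genes with a mean of at least 10 CPM, which over 3 regions mostly follows the region. Dusp6 was closest to Egr3, an immediate early transcription factor gene (r = 0.993, 10 libraries), Ppp1r3g and A330009N23Rik. Spry2 was closest to Zbtb4 (0.995), Pacsin1 and Chrm4, Dusp14 to Slc12a5 (0.995), Tmem132a and Trim8, and Dusp5 to Fam131a (0.997), Nos1ap and Adgrb2. Dusp1 was closest to 1700016P03Rik (0.975), Trib1 and Atg13, Spry4 to Etv3 (0.964), Ube2j1 and Golph3, and Spred1 to Epas1 (0.946), Arhgap31 and Raph1. Dusp4 was closest to Rai1 (0.996, 9 libraries and 11750 genes), Zswim6 and Clpb. Among the 8 genes, Dusp6 and Spry2 were the most alike (0.974) and Dusp1 and Dusp4 the least (0.142). The mean of each region and sex was then removed, which leaves 5 differences between diets. Csnk1e, a casein kinase gene, was then the closest to both Dusp1 and Dusp6, and Per2, Srf and Bcl6 were the closest to Spry2. For the others the closest were Zc3h18 (Dusp4, 8 libraries), Psma2 (Dusp5), Klhl29 (Dusp14), Arid5a (Spry4) and Nup153 (Spred1). The closest gene had r between 0.986 and 0.998 for each of the 8. With so few differences and so many genes compared, such values carry little weight.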

How the data were processed

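Total RNA (1 µg per library) was made into TruSeq libraries, per the labels' protocols. Per the submitters' processing notes, CASAVA, FastQC 0.10.1 and STAR 2.5.0a were used with mm10. The authors deposited raw, unnormalized counts for Ensembl genes. The sources used here name neither a counting tool nor a strand setting. The 8 genes, the gene lists and the tests were chosen with earlier results of these data known.

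Of 47729 genes, 47310 matched GENCODE M21. The female NP hippocampus library lacks counts for 19598 genes in table order by chromosome, which were treated as missing there, so library sizes and TMM factors used the 28131 others. Genes were kept by filterByExpr (minimum count 10) and tested with edgeR 4.0.16 (R 4.3.3, quasi-likelihood F test, Benjamini-Hochberg over all genes, threshold 0.05). Diet was fitted within 5 strata of region and sex, regions with sex and diet as terms, and sex within strata of region and diet. Genes missing in 1 library were fitted on the other 9 if this left 2 or more residual degrees of freedom, so Dusp4 has no test within regions or between diet effects. Log2 values are given ± SE. Single pairs have log2 ratios (prior count 2) with 95% exact intervals of the ratio of the 2 counts, which cover counting error only. Alternatives were DESeq2 1.42.0, RLE size factors, no low-count filter, the earlier quasi-likelihood method, the incomplete library left out, additive terms, total counts and each pair left out. The fits were tested on simulated data. Of each pathway list, up to 5 called genes by smallest p could be named, and the 3 most similar genes per member were taken by rule. Gene names and coordinates are from GENCODE M21 (GRCm38) and promoters from RefSeq (GRCm38.p6). Some results are not reported here.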

Additional observations from a re-analysis of the deposited data

Results flagged for a closer look

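Dusp5 went the other way in hypothalamus than in the other regions. Its log2 ratio of LP over NP was -0.24 in the hypothalamus pair (95% interval -1.02 to 0.49, counting error only), where the gene was low at 2.54 CPM in LP and 3.05 CPM in NP. In the 4 pairs of hippocampus and prefrontal cortex it was positive, between 0.01 and 0.53. The difference between the regions was not tested, because hypothalamus has 1 library per diet.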

How the results depend on the processing

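Of 663 recomputed values of single genes, 600 kept their direction and their side of the threshold, 23 lost the call, 16 gained one and 24 changed sign, all of the last in values that were not called. Direction changed under RLE size factors for 1 of 68 values, Spred1 within prefrontal cortex (0.002 there and 0.003 with DESeq2, against -0.003). With DESeq2 the female minus male diet difference of Dusp14 was -0.034. With the incomplete library left out, that of Spry2 was 0.028, and the hippocampus minus prefrontal difference of Spry4 was 0.066.

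With each pair left out in turn, the diet value within prefrontal cortex ran from -0.31 to 0.91 for Dusp1, -0.10 to 0.42 for Dusp6 and -0.21 to 0.21 for Spred1, and within hippocampus from -0.16 to 0.17 for Dusp14. Hippocampus minus prefrontal cortex, it ran from -0.59 to 0.63 for Dusp1, which passed without the female prefrontal pair (adjusted p = 0.022), from -0.30 to 0.22 for Dusp6, -0.181 to 0.066 for Spry4 and -0.10 to 0.32 for Spred1. Female minus male, it ran from -0.17 to 0.35 for Dusp5, -0.49 to 0.32 for Dusp14 and -0.11 to 0.02 for Spry2. Hypothalamus against hippocampus it ran from -0.15 to 0.16 for Spry4 and -0.14 to 0.17 for Spred1, and female against male from -0.16 to 0.13 for Spry4 and -0.007 to 0.275 for Spred1.

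Of the 8 genes, those called higher in LP over all pairs numbered 2, against 0 with DESeq2, 0 without the filter, 1 with the earlier method and 0 to 3 with a pair left out. Within prefrontal cortex they numbered 1, against 0 with DESeq2, 0 without the filter, 3 without the incomplete library and 1 to 3 with a pair left out. Those called higher with a pair left out numbered 0 to 1 for hippocampus minus prefrontal cortex and 0 to 3 for female minus male diet effects, 1 to 2 for hippocampus against prefrontal cortex, and 0 to 2 in females, where the 0 arose without a prefrontal pair, when Dusp4 could not be fitted. DESeq2 and the unfiltered fit called 0 genes higher and 0 lower in females.

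Of all genes, 250 were called by diet over all pairs, against 112 with DESeq2 and 98 to 341 with a pair left out. Within prefrontal cortex 181 were called, against 12 with DESeq2, 21 without the filter, 529 without the incomplete library and 99 to 526 with a pair left out. Within hippocampus 36 were called, against 11, 5, 83 and 28 to 85. Between the diet effects of hippocampus and prefrontal cortex 0 were called, against 1 with the earlier method, 38 without the incomplete library and 0 to 65 with a pair left out. Between those of females and males 20 were called, against 11 with DESeq2, 0 without the filter, 5 without the incomplete library and 6 to 179. Between the sexes 108 were called, against 33 with DESeq2, 32 without the filter and 22 to 208. Hippocampus against prefrontal cortex 9394 were called, against 5719 to 9816, and hypothalamus against hippocampus 10552, against 6277 to 10222. The cause of these shifts was not tested.

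The diet fits are themselves paired, LP against NP within each region and sex. No further block by replicate number was fitted, as each group has 1 library. The hypothalamus comparisons could not be fitted without the hypothalamus pair. A fit that leaves 1 pair in a group assumes that it varies like the others. With 1 library per group, small differences near the threshold are the least certain.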
